A study of Mus musculus with 23 samples.

Results

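The genes of the NF-kappa B system itself were described in 23 mouse melanoma tumors through 10 of the 56748 genes of the count table, taken by gene name. They are the 5 subunits of the transcription factor (Nfkb1, Nfkb2, Rela, Relb and Rel), 3 genes of the I-kappa B family that hold it in the cytoplasm (Nfkbia, Nfkbib and Nfkbie), and 2 genes that it switches on and that act back on its own signaling (Tnfaip3 and Birc3). All 10 had enough counts to be tested by both routes of treatment.

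All tumors grew under the skin of DBA/2J mice, 6 to 8 weeks old, from implanted B16-F1 cells, a melanoma line that comes from another inbred strain, C57BL/6, so that the tumor cells and their hosts differ in genotype. Treatment was given into the peritoneum (IP, 8 tumors) or into the tumor (IT, 15 tumors). Mice of CONTROL_IP received saline solution and those of CONTROL_IT dimethyl sulfoxide (DMSO). PTX groups received pentoxifylline, a methylxanthine that inhibits phosphodiesterases, at 60 mg/kg. NCTD groups received norcantharidin, a demethylated cantharidin that inhibits protein phosphatases, at 3 mg/kg, and MIX groups received both drugs at these doses. CONTROL_IP, PTX_IP, NCTD_IP and MIX_IP held 2 tumors each, CONTROL_IT, NCTD_IT and MIX_IT held 4 each and PTX_IT held 3. The labels present every sample as a tumor of its own and give nothing more on how the replicates were made, so the p-values measure only the spread between these samples. The labels also call each route a batch, so route, control injection and batch cannot be told apart.

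NF-kappa B proteins bind DNA as pairs of subunits. In resting cells the pairs are kept out of the nucleus by I-kappa B proteins, and signals from receptors such as those for TNF, interleukin-1 or bacterial products activate kinases that lead to the destruction of the inhibitor. The freed factor then raises the transcription of inflammatory genes and of its own inhibitors, and in tumors both the cancer cells and the immune and stromal cells around them use it. Because the factor is controlled largely by the location and breakdown of proteins, the level of an mRNA does not measure its activity.

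The subunit genes lie, on GRCm39 as given in the count table, as follows: Nfkb1 (ENSMUSG00000028163) on chromosome 3 from 135290416 to 135397308, Nfkb2 (ENSMUSG00000025225) on chromosome 19 from 46292759 to 46300824, Rela (ENSMUSG00000024927) on chromosome 19 from 5687511 to 5698158, Relb (ENSMUSG00000002983) on chromosome 7 from 19340142 to 19363363 and Rel (ENSMUSG00000020275) on chromosome 11 from 23686847 to 23720970. Of the inhibitor genes, the table places Nfkbia (ENSMUSG00000021025) on chromosome 12 from 55536195 to 55539432, Nfkbib (ENSMUSG00000030595) on chromosome 7 from 28457676 to 28466937 and Nfkbie (ENSMUSG00000023947) on chromosome 17 from 45866629 to 45874095. The feedback genes are Tnfaip3 (ENSMUSG00000019850) on chromosome 10 from 18876658 to 18891405 and Birc3 (ENSMUSG00000032000) on chromosome 9 from 7848700 to 7873187. The libraries read the 3′ end of messenger RNA, so counts were not divided by gene length and levels are not compared between genes.

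The promoters are shown because several of these genes are known targets of the factor that they encode or restrain. The 250 bases before the start of the canonical transcript of each gene (GENCODE annotation, GRCm39) were searched on both strands for the kappa B consensus, the DNA motif of the factor, and 4 of the 10 held a match. Among all 21770 protein-coding genes 4.23% held one in a window of the same length. In the sequences below, written 5′ to 3′ on the strand of the gene, capitals mark the match. The first is the whole window of Nfkbia (minus strand, chr12:55539433-55539682), whose match begins 29 bases before the start and reads on the opposite strand. The others are windows of 30 bases from Relb (minus strand, chr7:19363441-19363470), Nfkbie (plus strand, chr17:45866510-45866539) and Tnfaip3 (minus strand, chr10:18891264-18891293), with matches that begin 37, 86 and 97 bases before the start and read on the strand of the gene.
Nfkbia: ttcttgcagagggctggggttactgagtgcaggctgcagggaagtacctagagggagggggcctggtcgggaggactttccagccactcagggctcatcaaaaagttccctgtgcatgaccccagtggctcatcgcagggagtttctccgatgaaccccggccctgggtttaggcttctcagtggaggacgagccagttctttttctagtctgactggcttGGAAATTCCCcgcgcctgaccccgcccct
Relb: gtgagcagcgGGGGTTTTCCcattcccttt
Nfkbie: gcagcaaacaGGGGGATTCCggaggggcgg
Tnfaip3: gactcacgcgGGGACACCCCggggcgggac
For Tnfaip3 the annotated gene begins farther upstream than its canonical transcript, so that this window lies inside the gene. The windows of Nfkb1, Nfkb2, Rela, Rel, Nfkbib and Birc3 held no match, which says only that this motif is not within these bases. The window of Nfkbib (minus strand, chr7:28466066-28466315) also lies inside its annotated gene, which extends to 28466937.

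The libraries held 2861578 to 6702374 gene counts (median 4013068). Levels are given as CPM, the count normalised to a library size scaled by TMM, with the SD between tumors, and 3 counts, the floor of what a tumor can show, correspond to 0.449 to 1.04 CPM. This floor covers counting error only. Summed over 8 pigment cell markers, the tumors of the IT route held between 16000 and 33100 CPM, so the labelled melanoma cells were present throughout. A pair of sex-linked genes that follow the host did not fall evenly on the groups. Xist, the RNA of the inactive X chromosome, was at 5.19 to 13.6 CPM in NCTD_IT and 1.28 to 11.6 CPM in PTX_IT but at most 2 counts per tumor in CONTROL_IT and 0 in MIX_IT, whereas Y-linked Ddx3y had at most 1 count in NCTD_IT and PTX_IT and was at 1.03 to 8.98 CPM in CONTROL_IT and 6.83 to 15.5 CPM in MIX_IT. The sex of the host and treatment with NCTD or PTX by the IT route therefore cannot be told apart, while MIX_IT and CONTROL_IT carried the same markers. The study's methods describe its groups as sex-matched, which these markers do not show for the sequenced tumors. In the IP route, Xist had 55 counts in 1 tumor of CONTROL_IP and 0 in the other, and was at 0 in PTX_IP, NCTD_IP and MIX_IP. Ddx3y had 3 and 29 counts in the CONTROL_IP tumors. It was at 3.28 to 8.08 CPM in PTX_IP, 7.28 to 14.1 CPM in NCTD_IP and 6.73 to 12.3 CPM in MIX_IP. The 2 controls of this route therefore did not carry the same sex markers.

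To ask whether treatment altered the NF-kappa B genes, each treated group was set against its route's own control in edgeR (quasi-likelihood test, Benjamini-Hochberg adjustment over all genes tested). In all 6 comparisons 0 of the 10 genes passed the adjusted threshold of 0.05. The largest differences were found for NCTD_IT, where the levels of Nfkbia, Rela, Rel, Nfkb1 and Birc3 were above those of CONTROL_IT at an unadjusted p below 0.05, which none of the genes reached in the other 5 comparisons with all tumors included. In NCTD_IT vs. CONTROL_IT 1.37% of the 12480 genes tested passed the adjusted threshold, and 5 of the 10 genes passed the unadjusted one, all of them higher, where 21.6% of all genes passed it in either direction and 11.6% were higher. Log2 fold changes were above 0 for 9 of the 10 genes, against 52% of all genes, with a median of 0.56 for the 10 genes and 0.03 for all genes. The 10 genes were chosen with earlier results of these data known, so these shares are descriptions and not tests. When the level of Xist entered the model as a covariate, 7 of the 9 log2 fold changes that had been above 0 in NCTD_IT turned below it, that of Nfkbia (-1.07) among them, and 0 of the 10 genes passed the unadjusted threshold. The Xist level nearly coincides with the groups, so this fit cannot separate host sex from treatment.

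**Figure D1:**
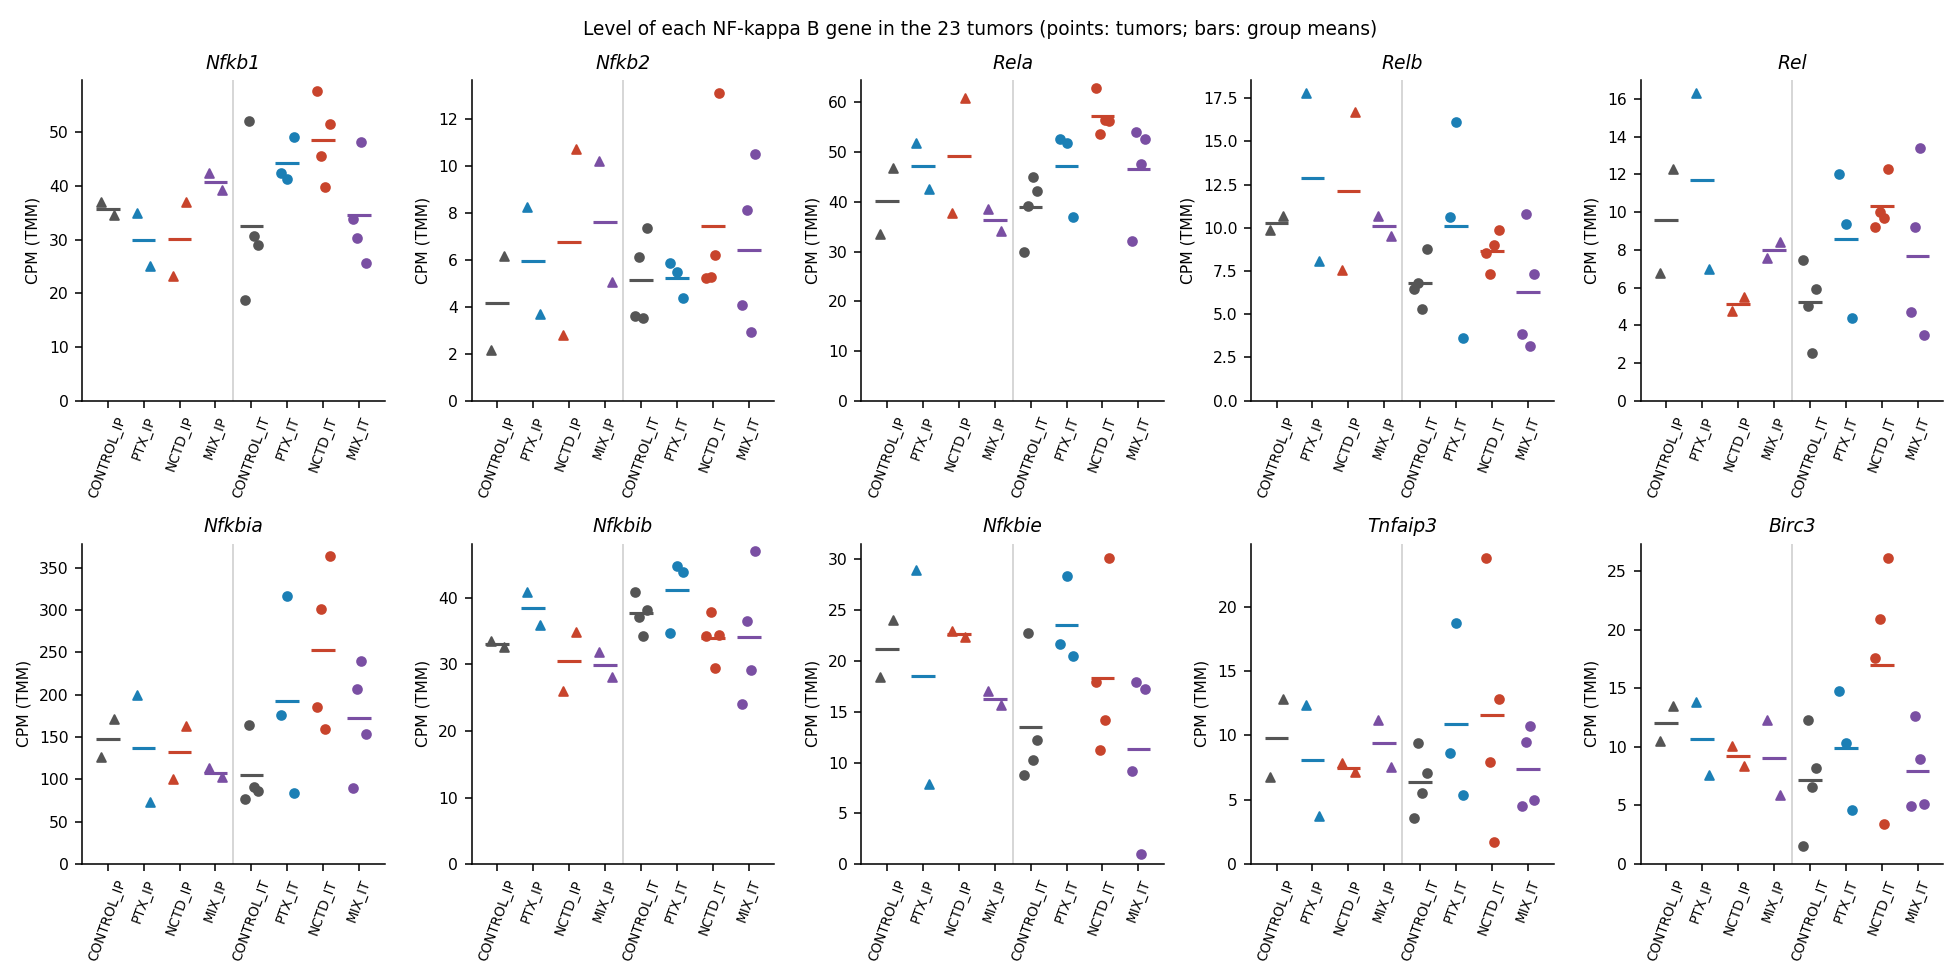
Levels of the 10 NF-kappa B genes (vertical axes, CPM, linear from 0) in the 8 groups (horizontal axes), with a point for each of the 23 tumors and a bar for each group mean; triangles are IP and circles IT tumors. The 4 NCTD_IT tumors of Rela (53.7 to 62.8 CPM) and of Rel (9.21 to 12.3 CPM) lie above all 4 CONTROL_IT tumors.

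Rela encodes the subunit p65, which carries the strongest activation domain of the family. In CONTROL_IT its levels were 29.9, 39.2, 44.9 and 42.2 CPM in the 4 tumors, and in NCTD_IT they were 62.8, 53.7, 56.4 and 56.3 CPM. No tumor of either group entered the range of the other, which held for 2 of the 10 genes and 16.8% of all genes. The log2 fold change was 0.55 (standard error 0.19, 95% interval 0.14 to 0.96) with an unadjusted p of 0.0114 and an adjusted p of 0.119. Its levels were 52.7, 51.9 and 37.0 CPM in PTX_IT and 32.1, 54.0, 47.6 and 52.6 CPM in MIX_IT. Both of these groups overlapped with the control, with log2 fold changes of 0.27 (standard error 0.21) and 0.25 (standard error 0.19). Values in the IP route were 33.6 and 46.9 CPM in CONTROL_IP, 51.8 and 42.6 CPM in PTX_IP, 37.8 and 60.9 CPM in NCTD_IP, and 38.6 and 34.2 CPM in MIX_IP. There the 3 log2 fold changes lay between -0.13 and 0.30.

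Rel encodes c-Rel, a subunit best known from lymphocytes and other blood cells. The CONTROL_IT tumors held 7.47, 5.04, 2.52 and 5.94 CPM and the NCTD_IT tumors 9.21, 9.99, 9.68 and 12.3 CPM, again without overlap. The log2 fold change was 0.97 (standard error 0.45, interval 0.02 to 1.92), with an unadjusted p of 0.0460 and an adjusted p of 0.223. In PTX_IT the levels were 12.0, 9.35 and 4.37 CPM, and in MIX_IT 4.71, 9.21, 13.4 and 3.5 CPM. These spread across the control values, and the log2 fold changes were 0.70 (standard error 0.48) and 0.55 (standard error 0.45). In the IP route the direction was the opposite for NCTD, since its tumors held 4.76 and 5.49 CPM against 6.79 and 12.3 CPM in CONTROL_IP (log2 fold change -0.90, interval -2.02 to 0.22). PTX_IP held 16.3 and 6.99 CPM and MIX_IP 7.57 and 8.42 CPM.

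Nfkb1 encodes p105, the precursor of the DNA-binding subunit p50. CONTROL_IT tumors had 18.8, 52.1, 30.7 and 28.9 CPM, and NCTD_IT tumors had 57.7, 45.5, 39.8 and 51.5 CPM. A single control tumor, replicate 10, lay among the treated ones, and the log2 fold change was 0.57 (standard error 0.27, interval 0.00 to 1.14) with an unadjusted p of 0.0489 and an adjusted p of 0.23. PTX_IT tumors had 42.4, 41.3 and 49.1 CPM and MIX_IT tumors 33.8, 30.3, 48.1 and 25.7 CPM, with log2 fold changes of 0.43 (standard error 0.29) and 0.07 (standard error 0.27). In the IP route the levels were 36.9 and 34.6 CPM in CONTROL_IP, 34.9 and 25.1 CPM in PTX_IP, 23.2 and 37.0 CPM in NCTD_IP, and 42.3 and 39.3 CPM in MIX_IP. Only MIX_IP lay apart from its control, by a log2 fold change of 0.20 (interval -0.39 to 0.80).

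Nfkb2 and Relb encode p100 and RelB, the subunits of the slower, noncanonical branch of the pathway. Nfkb2 was near the limit of the depth, with 10 to 63 counts per tumor. Its levels in CONTROL_IT were 3.60, 6.13, 3.53 and 7.36 CPM and in NCTD_IT 5.22, 5.29, 6.22 and 13.1 CPM, where replicate 20 stood apart. The log2 fold change was 0.52 (interval -0.45 to 1.49). PTX_IT had 5.85, 5.48 and 4.37 CPM and MIX_IT 4.07, 8.12, 2.91 and 10.5 CPM, with intervals of -1.05 to 1.08 and -0.65 to 1.28. The exons of Nfkb2 share 1081 bases with those of an antisense RNA, 4833438C02Rik, which had 3 to 45 counts per tumor, and since the strand setting of the counting is not given, reads of the pair cannot be told apart.

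Relb levels were 6.44, 6.79, 5.29 and 8.77 CPM in CONTROL_IT and 8.52, 7.34, 8.99 and 9.87 CPM in NCTD_IT. The groups overlapped, and the log2 fold change was 0.35 (interval -0.59 to 1.28). Among the IT groups its spread was widest in PTX_IT, with 10.6, 16.1 and 3.60 CPM (log2 fold change 0.55, interval -0.45 to 1.55). MIX_IT had 3.85, 10.8, 3.16 and 7.33 CPM, and its log2 fold change was -0.11 (interval -1.04 to 0.82). In PTX_IP and NCTD_IP the 2 tumors of a group lay far apart for both genes: Relb was at 17.8 and 8.08 CPM in PTX_IP and at 7.56 and 16.7 CPM in NCTD_IP, and Nfkb2 at 8.23 and 3.71 CPM in PTX_IP and at 2.80 and 10.7 CPM in NCTD_IP.

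Nfkbia encodes I-kappa B alpha, the inhibitor that NF-kappa B induces most directly and that ends the response. CONTROL_IT tumors had 76.7, 164, 91.5 and 86.0 CPM, and NCTD_IT tumors had 186, 301, 160 and 364 CPM. Replicate 10 of the control, at 164 CPM, was above the lowest NCTD_IT tumor, and the other 3 controls were below every NCTD_IT tumor. Group means were 105 ± 40.0 CPM (SD, n = 4) and 253 ± 96.0 CPM (SD, n = 4). The log2 fold change of 1.27 (standard error 0.39, interval 0.44 to 2.10) was the largest of the 10 genes in this comparison, with an unadjusted p of 0.00494 and an adjusted p of 0.0827. This was short of the threshold, and the call depended on the test: DESeq2 on the same 15 tumors gave an adjusted p of 0.0233, DESeq2 on the 8 tumors compared 0.00102 and edgeR on those 8 tumors 0.03. In PTX_IT the 3 tumors had 176, 317 and 84.5 CPM, and in MIX_IT the 4 had 89.5, 207, 240 and 154 CPM. Both groups held a tumor at the control level, and the log2 fold changes were 0.87 (interval -0.01 to 1.75) and 0.72 (interval -0.10 to 1.54). By the IP route Nfkbia was at 126 and 171 CPM in CONTROL_IP, 200 and 73.6 CPM in PTX_IP, 100 and 163 CPM in NCTD_IP, and 113 and 103 CPM in MIX_IP. All 3 IP log2 fold changes were below 0, from -0.12 to -0.45.

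Nfkbib encodes I-kappa B beta, an inhibitor that is induced less by the factor. It was the steadiest of the 10 genes, with 40.9, 37.2, 34.3 and 38.2 CPM in CONTROL_IT and 34.3, 37.9, 29.4 and 34.4 CPM in NCTD_IT. The log2 fold change was -0.15 (interval -0.56 to 0.27), the only negative one of the 10 in this comparison. PTX_IT had 34.8, 44.8 and 43.9 CPM and MIX_IT 24, 36.5, 29.1 and 47.0 CPM, with intervals of -0.32 to 0.57 and -0.55 to 0.27. Its exons share 42 bases with those of Sirt2 on the other strand, which had 117 to 543 counts per tumor.

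Nfkbie encodes I-kappa B epsilon, a further inhibitor under NF-kappa B control. Levels were 8.75, 22.8, 10.3 and 12.2 CPM in CONTROL_IT and 17.9, 11.2, 14.2 and 30.1 CPM in NCTD_IT, where the log2 fold change was 0.43 (interval -0.70 to 1.57). The 3 PTX_IT tumors were at 21.7, 28.4 and 20.5 CPM, and replicate 10 was the only control tumor among them (log2 fold change 0.79, interval -0.42 to 2.00). The lowest value of the gene in the whole series was in MIX_IT, whose tumors had 9.21, 17.9, 0.971 and 17.2 CPM. The third of these, replicate 23, rested on 4 counts. In the IP route Nfkbie was at 18.4 and 24 CPM in CONTROL_IP and at 29.0 and 7.86 CPM in PTX_IP, so that the spread of a single group covered all 8 tumors.

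Tnfaip3 encodes A20, a ubiquitin-editing enzyme that shuts off signaling from TNF and Toll-like receptors. Its levels in CONTROL_IT were 3.60, 9.42, 5.54 and 7.07 CPM. In NCTD_IT they were 23.8, 7.93, 1.73 and 12.8 CPM. Both the highest and the lowest tumor of the series were thus in NCTD_IT, and the log2 fold change of 0.87 had an interval of -0.36 to 2.10. The lowest, replicate 19, rested on 5 counts. PTX_IT had 8.64, 18.7 and 5.39 CPM and MIX_IT 4.50, 9.52, 10.7 and 5.00 CPM (log2 fold changes 0.74 and 0.20).

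Birc3 encodes cIAP2, a ubiquitin ligase at TNF receptors that restrains cell death and the noncanonical branch. CONTROL_IT tumors had 1.54, 12.3, 6.55 and 8.20 CPM and NCTD_IT tumors 17.6, 20.9, 3.46 and 26.1 CPM. Of the 4 treated tumors, 3 were above every control, and replicate 19 was below 3 of the 4 controls. Replicate 19 rested on 10 counts, and the lowest control, replicate 9, on 6 counts. The log2 fold change was 1.24 (standard error 0.59, interval 0.00 to 2.48), with an unadjusted p of 0.0498 and an adjusted p of 0.231. In PTX_IT the levels were 14.8, 10.3 and 4.62 CPM and in MIX_IT 4.92, 12.6, 8.98 and 5.16 CPM (log2 fold changes 0.45 and 0.14). By the IP route the feedback genes had log2 fold changes between -0.39 and -0.05 in all 3 treated groups, with Birc3 at 10.5 and 13.5 CPM in CONTROL_IP and at 10.1 and 8.36 CPM in NCTD_IP.

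**Figure D2:**
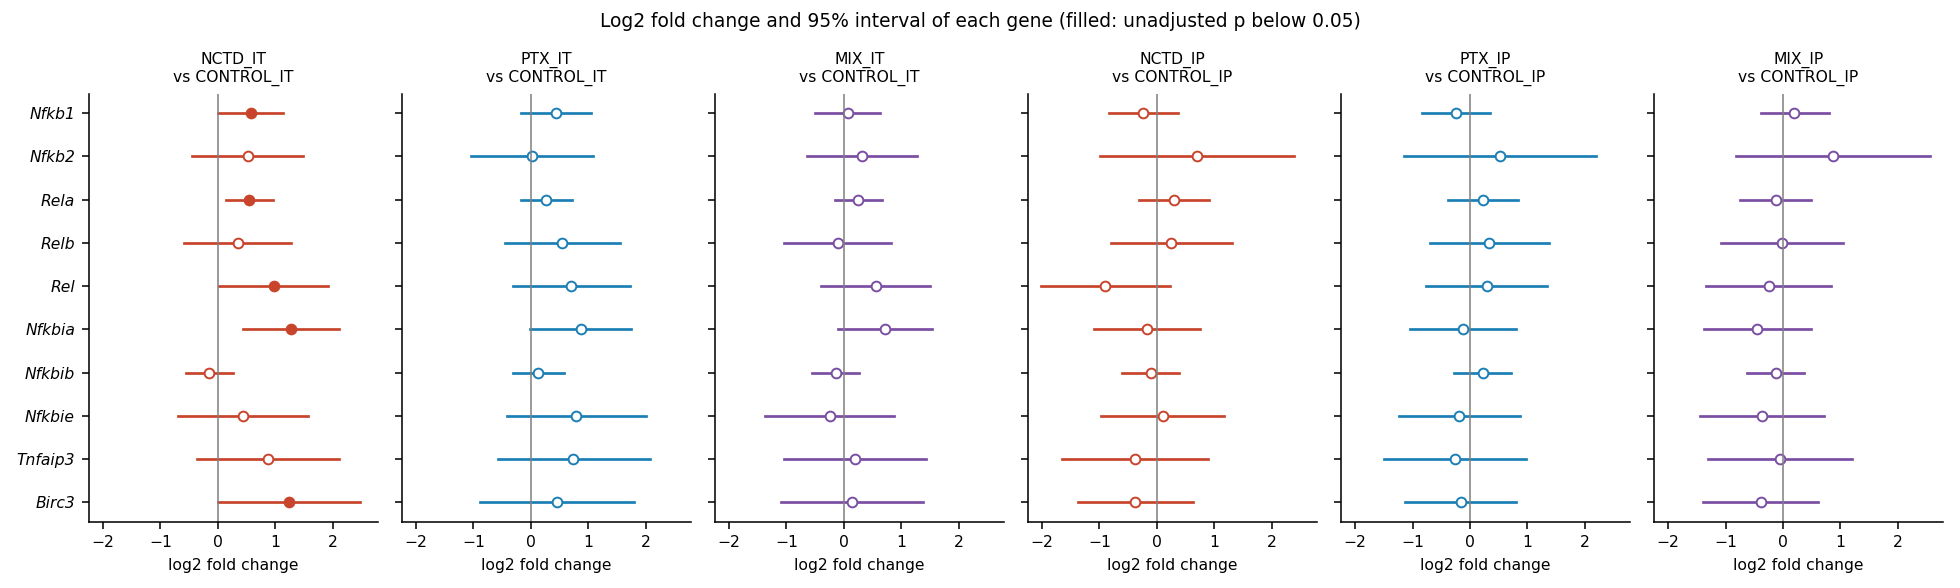
Log2 fold change against the control of the route (horizontal axes) of the 10 genes (rows) in the 6 comparisons, with the estimate as a point and its 95% interval as a line. Filled points, which are Nfkb1, Rela, Rel, Nfkbia and Birc3 in NCTD_IT alone, have an unadjusted p below 0.05.

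In PTX_IT vs. CONTROL_IT all 10 log2 fold changes were above 0 (51.6% of all genes were), with a median of 0.50, but no gene of the 10 was free of overlap with the control (7.96% of all genes were) and the smallest unadjusted p was 0.0512, for Nfkbia. With Xist as a covariate 7 of the 10 turned below 0, Nfkbia (-1.20) among them, and that of Nfkb2 turned with the tumor left out (-0.13 to 0.23). The fit with Xist cannot separate host sex from treatment here either, because the Xist level nearly coincides with the groups. None of the 10 genes, and 0% of all genes, passed the adjusted threshold, and 6.35% of all genes passed the unadjusted one. In MIX_IT vs. CONTROL_IT 7 of the 10 were above 0 (51.1% of all genes), with a median of 0.17 and a smallest adjusted p of 0.451, and again none was free of overlap (9.91% of all genes). In this comparison, whose groups shared the same sex markers, 0% of all genes passed the adjusted and 13% the unadjusted threshold. These 3 comparisons share the 4 CONTROL_IT tumors, so their directions are not independent of each other.

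By the IP route the 10 genes showed no common direction. Log2 fold changes above 0 numbered 4 in NCTD_IP, 5 in PTX_IP and 2 in MIX_IP, where 49.1%, 51.2% and 48.8% of all genes were above 0, with medians of -0.14, 0.05 and -0.13 and the same 2 control tumors in each. Tumors did not overlap with the control for Rel and Birc3 in NCTD_IP (both lower, 34.3% of all genes), for Nfkbib in PTX_IP (higher, 31.8%), and for Nfkb1 (higher), Nfkbia, Nfkbib and Nfkbie (lower) in MIX_IP (35.9%). With 2 tumors against 2 such separation was thus common. No gene passed the unadjusted threshold, where 3.59%, 5.3% and 2.94% of all genes did, and 0% of all genes passed the adjusted one in each. With 2 tumors a group the intervals were wide, such as -0.99 to 2.39 for Nfkb2 in NCTD_IP, so that differences of the size seen in NCTD_IT lay inside several of them.

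The treated IT groups were also compared with each other, to see whether the combination departed from its single drugs. The sex markers of MIX_IT were opposite to those of NCTD_IT and PTX_IT, which carried the same ones. In the comparisons of MIX_IT with a single drug, host sex and treatment therefore cannot be told apart. Relative to NCTD_IT, MIX_IT had lower levels of 9 of the 10 genes (log2 fold changes from -1.10 for Birc3 to -0.21 for Nfkb2, and 0.00 for Nfkbib), but the smallest adjusted p was 0.815, with 0.00801% of all genes past the adjusted and 6.02% past the unadjusted threshold, which 0 of the 10 passed. Above 0 were 50.6% of all genes. The tumors of these groups overlapped for all 10 genes and were apart for 2.99% of all genes. Relative to PTX_IT, 9 of the 10 were lower in MIX_IT (median -0.29, smallest adjusted p 0.982, 49.4% of all genes above 0), and Nfkbie alone had no overlap (log2 fold change -1.04, interval -2.24 to 0.16, against 4.21% of all genes apart). Between NCTD_IT and PTX_IT 7 of the 10 were higher in NCTD_IT (50% of all genes), with a smallest adjusted p of 0.999, and Rela alone had no overlap (4.43% of all genes). In these last comparisons 0% of all genes passed the adjusted threshold, and 0 of the 10 genes passed the unadjusted one, which 3.75% of all genes passed against PTX_IT for MIX_IT and 3.87% for NCTD_IT.

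Whether a drug acted differently by its 2 routes was tested in a model of all 23 tumors. The sex markers of NCTD_IT and PTX_IT differed from those of CONTROL_IT, and the 2 CONTROL_IP tumors differed from each other. Route, control injection, batch and host sex therefore cannot be told apart in these differences. For NCTD, the IT effect exceeded the IP effect by 1.87 for Rel on the log2 scale (standard error 0.74, interval 0.32 to 3.42, unadjusted p 0.0205, adjusted p 0.386) and by 1.44 for Nfkbia (standard error 0.68, interval 0.03 to 2.86, unadjusted p 0.0457, adjusted p 0.448). These 2 of the 10 genes passed the unadjusted threshold, where 10.8% of all genes did, and 0% of all genes passed the adjusted one. Both rested on single tumors: without CONTROL_IP replicate 2 or NCTD_IP replicate 5 none of the 10 genes passed the unadjusted threshold, and without CONTROL_IT replicate 9, 11 or 12 or NCTD_IT replicate 18 or 20 Rel alone did. The IT effect was the higher one for 8 of the 10 genes (52.8% of all genes). For PTX and for MIX no gene of the 10 had an unadjusted p below 0.05 (5.23% and 7.44% of all genes), and the smallest adjusted p were 0.897 and 0.728. The IT effect was higher for 8 of the 10 genes with PTX (51.5% of all genes) and 7 with MIX (53.5%).

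Over the 8 groups, ordered by mean log2 CPM, NCTD_IT was the highest for Nfkb1, Rela, Nfkbia and Birc3, and CONTROL_IT the lowest for Rel, Nfkbia, Tnfaip3 and Birc3. Group means of Nfkbia ran from 253 ± 96.0 CPM in NCTD_IT through 193 ± 117 in PTX_IT, 173 ± 65.7 in MIX_IT, 148 ± 32.2 in CONTROL_IP, 132 ± 44.6 in NCTD_IP, 137 ± 89.4 in PTX_IP and 108 ± 7.27 in MIX_IP to 105 ± 40.0 in CONTROL_IT. Those of Rela ran from 57.3 ± 3.85 CPM in NCTD_IT to 36.4 ± 3.11 CPM in MIX_IP. Neighbours in the order overlapped in all 7 pairs for 9 of the genes and in 6 of 7 for Nfkb1, so the order within each list is not resolved. The span from the highest to the lowest group was smallest for Nfkbib (0.44 on the log2 scale).

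The genes differed in how far tumors of the same group spread. The coefficient of biological variation that edgeR estimated over the 23 tumors was 18.4% for Nfkbib, 20.1% for Rela and 25% for Nfkb1, below the median of 29.4% over all genes. It was 38.6% for Nfkbia, 39% for Relb, 39.3% for Rel and 46.7% for Nfkb2, and 49.2% for Nfkbie, 50.6% for Birc3 and 52.4% for Tnfaip3. Counting error was smaller than this spread for each gene: at its median count it was 3.93% for Nfkbia (647 counts) and 22.9% for Nfkb2 (19 counts), the extremes of the 10. Tnfaip3, Birc3 and Nfkbie thus varied most between tumors that had received the same treatment.

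Most pairs of the 10 genes, but not those with Nfkbib, correlated positively across the 23 tumors to some degree. Of the 45 pairs, 41 had a Spearman correlation of log2 CPM above 0, with a median of 0.42. Within the 15 IT tumors 37 pairs were above 0 (median 0.44), and within the 8 IP tumors 40 were (median 0.45). The closest pair was Tnfaip3 with Birc3 (Spearman 0.83, Pearson 0.75), followed by Nfkbia with Tnfaip3 (0.76 and 0.58), Nfkbia with Birc3 (0.75 and 0.67), Nfkbia with Rela (0.70 and 0.72) and Nfkbia with Rel (0.70 and 0.61). Nfkbib had correlations between -0.10 and 0.32 to the other 9 over all tumors, between -0.32 and 0.33 within the IT tumors and between -0.19 and 0.60 within the IP tumors, where the highest were with Rela (0.60), Relb (0.55) and Nfkbia (0.43). All points share libraries with common scaling and cell composition, and these correlations are descriptions over n = 23 tumors. The share of pairs above 0 among all genes is not given here.

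**Figure D3:**
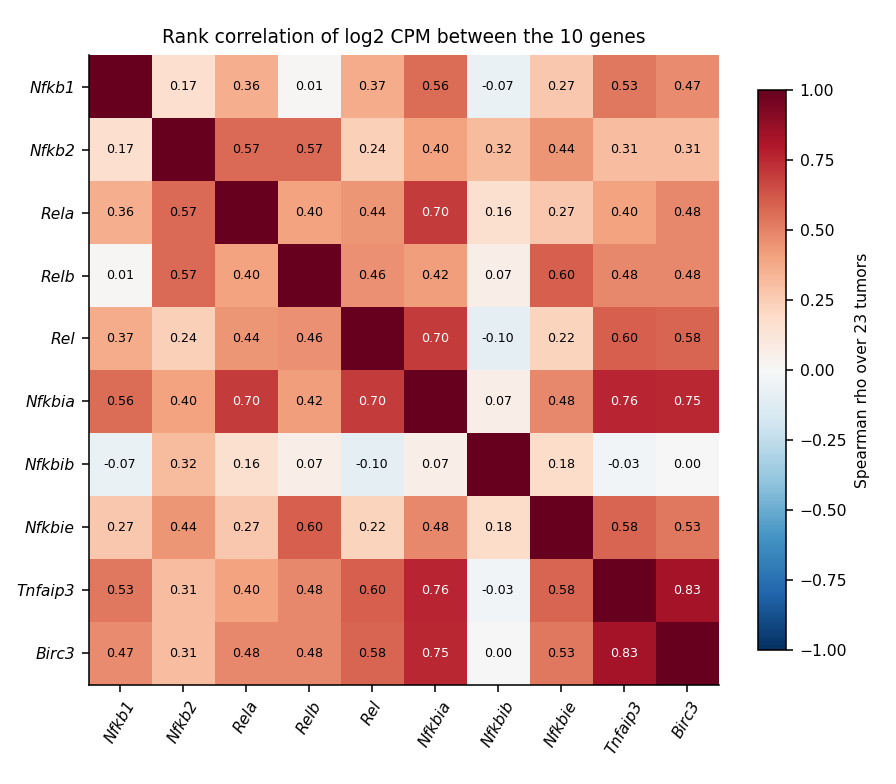
Spearman correlation of log2 CPM over the 23 tumors for each pair of the 10 genes, from -1 (blue) to 1 (red). The values run from -0.10 (Rel with Nfkbib) to 0.83 (Tnfaip3 with Birc3), and the row of Nfkbib lies between -0.10 and 0.32.

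Among the 13395 genes tested in all tumors, genes with the pattern most like each of the 10 were taken by Spearman correlation over the 23 tumors. Nfkbia was close to Lgmn, which encodes a lysosomal protease, and to Cmtm6 (0.96 for each, Pearson 0.92 and 0.94). Birc3 was closest to Srgn (0.89), Itgam (0.88) and Serinc3 (0.87), of which Itgam encodes the myeloid integrin CD11b. For Tnfaip3 they were Aftph and Prkcb (0.89 each) and Lcp2 (0.88), an adaptor of blood cells. Nfkbie was closest to Skap1 (0.89), Neo1 (0.88) and Tbxas1 (0.86). Among the subunits, Rela was closest to Trac, the constant chain of the T cell receptor alpha, with Mical3 (0.83 each) and Tcirg1 (0.82), Relb to Ppp6r1 (0.86), Endod1 (0.84) and Was (0.83), and Nfkb1 to Susd6 (0.86), Chst11 (0.82) and Cebpb (0.79). Nfkb2 had Grina (0.83), Gm9844 (0.80) and Rnh1 (0.78), Rel had Il17rd (0.83), Ly6d (0.81) and Gm37607 (0.79), and Nfkbib had Zfpm1 and Nrxn2 (0.69 each) and Npr2 (0.67), the loosest of these matches. Pearson correlations of the matches named here ran from 0.56 to 0.94.

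Markers of immune cells moved with several of the genes. In these bulk tumors, fewer cells of a type and less RNA per cell cannot be told apart. The summed level of 9 macrophage markers, none of them at or under the floor throughout an IT group, had a Spearman correlation over the 23 tumors of 0.78 with Nfkbie, 0.76 with Relb, 0.75 with Birc3, 0.73 with Nfkbia and 0.72 with Tnfaip3, and of 0.40 to 0.55 with Rela, Rel, Nfkb1 and Nfkb2. For Nfkbib it was 0.04. With 5 dendritic cell markers the values were 0.84 for Nfkbia, 0.81 for Birc3 and 0.80 for Tnfaip3, and with 8 melanoma markers they were -0.23, 0.09 and -0.03 for the same genes. For the other genes the melanoma markers gave -0.47 (Nfkb1) to 0.42 (Relb). Several other immune markers, but not all, correlated to a like degree, so the link is not particular to macrophages. With leukocyte, T cell and NK cell markers the values were 0.79, 0.71 and 0.69 for Nfkbia and 0.78, 0.80 and 0.79 for Nfkbie. Neutrophil markers gave 0.62 for Nfkbia and -0.08 for Nfkbie. Markers of non-immune cells were not free of such correlation. Those of endothelial cells, fibroblasts, keratinocytes and skeletal muscle gave 0.59, 0.41, 0.62 and 0.48 for Nfkbia. For Nfkbie they gave -0.07, -0.21, 0.48 and 0.44.

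**Figure D4:**
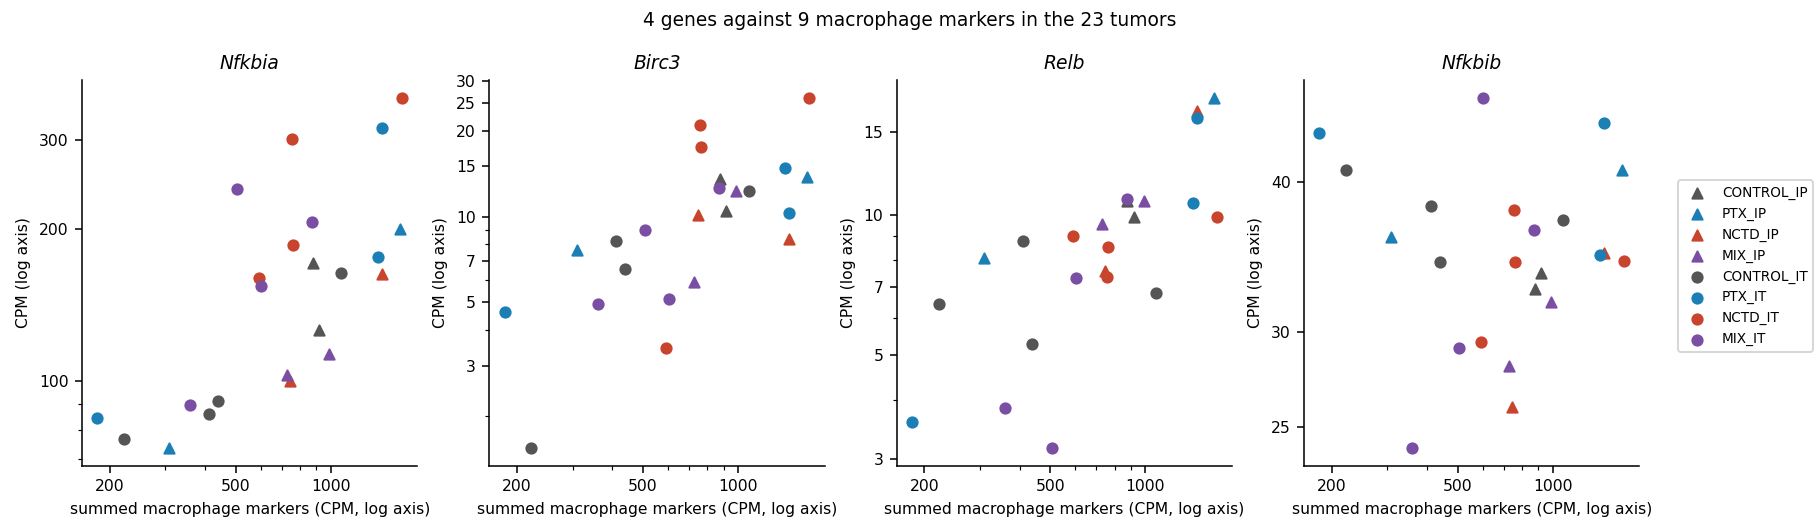
CPM of Nfkbia, Birc3, Relb and Nfkbib (vertical log axes) against the summed CPM of 9 macrophage markers (horizontal log axes), 1 point per tumor in the colour and shape of its group. The first 3 genes are higher in tumors with more macrophage marker RNA (Spearman 0.73, 0.75 and 0.76), and Nfkbib is not (0.04).

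The same markers were also set side by side for the groups compared, and the ranges of several of their sums overlapped. Macrophage markers summed to 592 to 1680 CPM in NCTD_IT (median 759), 183 to 1450 CPM in PTX_IT (median 1410) and 360 to 872 CPM in MIX_IT (median 555), against 222 to 1080 CPM in CONTROL_IT (median 425). At an unadjusted p below 0.05, 3 of the 9 were higher in NCTD_IT (median log2 fold change 0.98), 3 in PTX_IT (0.95) and 1 in MIX_IT (0.25), while 0 passed the adjusted threshold in each. In NCTD_IT 11.6% of all genes were higher at the unadjusted threshold, 21.6% passed it in either direction and 1.37% were called. In PTX_IT and MIX_IT 6.35% and 13% passed it in either direction and 0% were called. Replicate 10, the CONTROL_IT tumor with the highest Nfkbia, Nfkb1, Nfkbie, Tnfaip3 and Birc3, was also the one with the highest sum, at 1080 CPM. The NCTD_IT tumor with the highest Nfkbia and Birc3, replicate 20, had the highest sum of its group. Other tumors departed from this: Rela, Nfkb1 and Tnfaip3 were highest in NCTD_IT replicate 17, whose sum was 762 CPM. In MIX_IT, Nfkbia was highest in replicate 23, whose sum of 507 CPM was below those of replicates 22 (872 CPM) and 24 (603 CPM). Dendritic cell markers summed to 8.64 to 35.7 CPM in NCTD_IT and 0 to 13.8 CPM in CONTROL_IT. Leukocyte markers summed to 89.2 to 419 CPM in NCTD_IT and 17.8 to 175 CPM in CONTROL_IT (1 of 4 higher unadjusted). NK cell markers summed to 33.9 to 369 CPM in NCTD_IT and 3.09 to 190 CPM in CONTROL_IT (0 of 5 higher unadjusted). Of 6 neutrophil markers, 3 were tested and 2 were called higher in NCTD_IT, where the sum was 17.9 to 1090 CPM with Ly6g at or under the floor in every tumor. In CONTROL_IT the sum was 2.26 to 8.76 CPM, with Ly6g, Cxcr2 and Retnlg at or under the floor. The highest of these, 1090 CPM, was NCTD_IT replicate 18, and without it the log2 fold change of Nfkbia was 1.18 (unadjusted p 0.0145) and 2 of the 10 genes, Rela and Nfkbia, passed the unadjusted threshold. T cell markers summed to 10.4 to 121 CPM in NCTD_IT and 0 to 33.5 CPM in CONTROL_IT, with Cd3e and Cd4 at or under the floor in the controls and 2 of 6 higher at the unadjusted threshold. Endothelial markers summed to 61.2 to 125 CPM against 31.7 to 56 CPM (3 of 4 higher unadjusted), and erythroid markers to 258 to 1360 CPM against 1240 to 6940 CPM (3 of 4 lower unadjusted). Fibroblast markers summed to 377 to 1660 CPM in NCTD_IT and 106 to 361 CPM in CONTROL_IT (4 of 5 higher unadjusted), and melanoma markers to 20100 to 28100 CPM and 27300 to 33100 CPM, with 1 of 8 called lower. The part of these cells in the differences was not tested.

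The remaining pathway was followed through 90 genes in 5 lists, of which 75 were tested. The lists were chosen with earlier results of these data known, so their shares beside those of all genes are descriptions and not tests. In NCTD_IT vs. CONTROL_IT 3 of them were called, all higher, where 1.37% of all genes were called. At the unadjusted threshold 26 were higher and 1 was lower, where 21.6% of all genes passed it and 11.6% were higher. In PTX_IT none was called and the unadjusted counts were 11 higher and 1 lower (6.35% of all genes passed in either direction). In MIX_IT none was called, with 6 higher and 1 lower (13% of all genes). By the IP route none was called in any group and no more than 3 genes passed the unadjusted threshold in either direction. Of all genes 3.59% passed it in NCTD_IP, 5.3% in PTX_IP and 2.94% in MIX_IP, and 0% were called.

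All 3 called genes were targets of the factor. Mmp9, a protease of the extracellular matrix, was at 0.515, 0.219, 0.756 and 0.283 CPM in CONTROL_IT and rose to 8.00, 33.2, 21.4 and 5.87 CPM in NCTD_IT (log2 fold change 5.18, standard error 0.92, adjusted p 0.028). Its control tumors held only 1 to 3 counts, and the ratio of summed counts was 35.0 with a counting interval of 16.8 to 88.1. The chemokine gene Cxcl2, which draws neutrophils, rose from 10.6, 17.1, 12.6 and 8.49 CPM to 43.3, 1270, 79.2 and 37.9 CPM (log2 fold change 4.86, standard error 1.04, adjusted p 0.0363). Its highest value was in replicate 18, the tumor with the neutrophil markers, and without that tumor the log2 fold change was 2.13 and the adjusted p 0.121. Saa3, an acute-phase protein gene, rose from 6.18, 17.1, 15.6 and 15 CPM to 30.6, 204, 184 and 20.3 CPM (log2 fold change 3.01, standard error 0.68, adjusted p 0.0423). Leaving out 1 tumor at a time kept the direction of these 3 genes throughout, and the call held in 3 of 8 fits for Mmp9, 3 of 8 for Cxcl2 and 1 of 8 for Saa3, with adjusted p between 0.0296 and 0.145. With Xist as a covariate the log2 fold changes were 2.32, 3.51 and 1.92 in the same order, and the adjusted p 0.849, 0.84 and 0.84. The Xist level nearly coincides with the groups, so these values do not separate host sex from treatment.

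Of the 29 target genes tested, 13 were higher and 0 lower in NCTD_IT at the unadjusted threshold (median log2 fold change 0.78), where 11.6% of all genes were higher and the median of all genes was 0.03. This list too was chosen with earlier results of these data known. Receptors and adaptors had 7 of 24 higher and 0 lower (median 0.52). The lowest p there belonged to Traf3, an adaptor that restrains the noncanonical branch, at 47.8 ± 6.12 CPM against 26.1 ± 4.25 CPM (log2 fold change 0.87, adjusted p 0.0586), and to Birc2, the neighbour and close relative of Birc3, at 44.5 ± 9.90 against 21.8 ± 7.33 CPM (1.03, adjusted p 0.0632). Among the ligands 2 of 5 were higher. Il1b was at 3.60, 44.5, 18.1 and 19.8 CPM in CONTROL_IT and 22.6, 828, 42.5 and 46.4 CPM in NCTD_IT (log2 fold change 3.43, adjusted p 0.0745), and Tnf at 0.515, 7.01, 5.80 and 1.13 CPM against 13.2, 29.1, 4.84 and 10.4 CPM (1.96, adjusted p 0.181). Both groups overlapped for both ligands, and replicate 18 again held the highest values. Without that tumor the log2 fold change of Il1b was 0.78 (unadjusted p 0.246) and that of Tnf 1.38 (unadjusted p 0.13).

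Of 15 kinases and ubiquitin enzymes, 3 were higher and 1 was lower in NCTD_IT at the unadjusted threshold, with a median log2 fold change of 0.11. Of all genes 21.6% passed that threshold and 11.6% were higher, so the count of this list was near the share of all genes. Tab2 (130 ± 15.3 against 90.5 ± 17.9 CPM, log2 fold change 0.52) and Chuk, the kinase IKK alpha (66.8 ± 11 against 42.7 ± 9.43 CPM, 0.64), were above the control, and Ikbkg, the regulatory subunit NEMO, was below it (17.6 ± 3.81 against 25.1 ± 2.74 CPM, -0.52). Their adjusted p were 0.0918, 0.107 and 0.197. Of the atypical I-kappa B genes 2 of 3 were tested, and Nfkbiz was at 24.7 ± 8.73 against 13.2 ± 2.24 CPM (log2 fold change 0.90, adjusted p 0.0985).

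**Figure D5:**
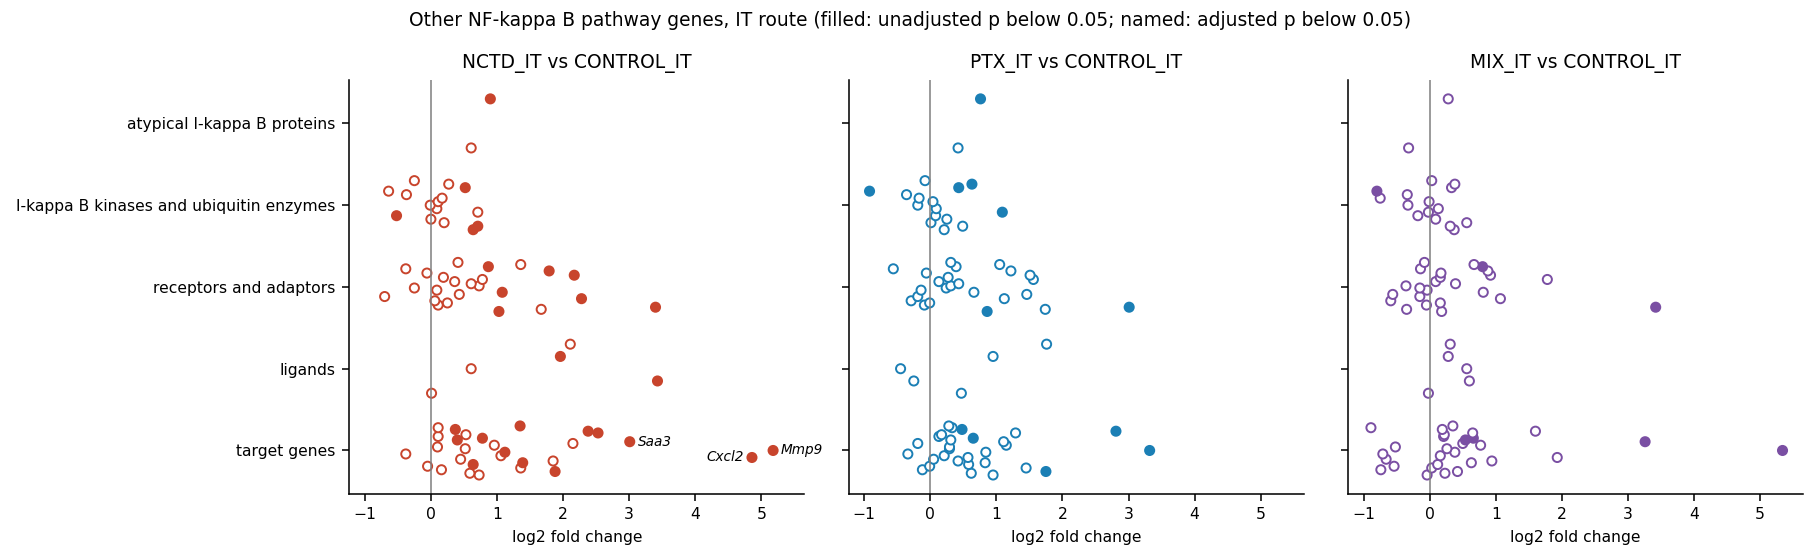
Log2 fold change against CONTROL_IT (horizontal axes) of the 75 tested genes in 5 lists of the NF-kappa B pathway (rows), 1 point per gene, for NCTD_IT, PTX_IT and MIX_IT. Filled points have an unadjusted p below 0.05, and the 3 named target genes in NCTD_IT have an adjusted p below 0.05.

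In PTX_IT and MIX_IT, Mmp9 was the target gene with the lowest p, at 7.53, 6.12 and 0.514 CPM and at 12.8, 4.06, 34.5 and 24.7 CPM (adjusted p 0.758 and 0.104). Saa3 was at 208, 48.7, 134 and 129 CPM in MIX_IT (log2 fold change 3.26, adjusted p 0.122), and Vcam1, an adhesion molecule of vessels, at 38.5 ± 37.1 CPM in PTX_IT against 5.31 ± 3.51 CPM (2.81, adjusted p 0.758). Il1r1, the interleukin-1 receptor, was at 0, 0.657, 0.252 and 0 CPM in CONTROL_IT, 4 counts in all, and at 1.39, 4.99, 1.38 and 3.73 CPM in NCTD_IT (adjusted p 0.0958). Its levels were 3.90, 1.29 and 1.28 CPM in PTX_IT (adjusted p 0.785) and 5.57, 0.937, 5.10 and 0.167 CPM in MIX_IT (adjusted p 0.204), where 2 tumors held most of the counts and 1 lay within the control range. Tab1 was below the control in both groups at the unadjusted threshold, at 6.00 ± 2.16 CPM in PTX_IT and 6.52 ± 1.67 CPM in MIX_IT against 11.4 ± 3.83 CPM. By the IP route the ligand gene Il33 was at 7.65 ± 3.69 CPM in NCTD_IP and 7.29 ± 0.391 CPM in MIX_IP against 15.7 ± 0.559 CPM in CONTROL_IP (adjusted p 0.999 for both). The other genes that the naming rule took at an unadjusted p below 0.05 were, in PTX_IT, Nfkbiz (log2 fold change 0.76), Tab2 (0.43), Birc2 (0.86) and Map3k14, the kinase of the noncanonical branch (1.09), and, in MIX_IT, Traf3 (0.80), all with adjusted p of 0.185 or more. In the IP groups they were Tbk1 (-0.65), Plau (-1.14) and Xiap (-0.49) in PTX_IP, Irak4 (-0.58) in MIX_IP and Bcl2l1 (0.88) in NCTD_IP, with adjusted p of 0.906 or more.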

How the data were processed

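RNA was sequenced from 23 tumors. Trimmomatic and, on GRCm39, STAR 2.7.11b were used by the authors, who deposited raw counts of reads per gene; the strand setting, the treatment of multiply aligned reads and the use of molecular identifiers are not given in the sources used here. Tests were run in edgeR 4.0.16 under R 4.3.3 (quasi-likelihood test, TMM, filterByExpr at its minimum count, 10, and minimum total, 15, the 4 groups of a route in the same model), two-sided, with Benjamini-Hochberg adjustment over all genes tested and a threshold of 0.05. DESeq2 1.42.0, the tool named in the study's methods, was an alternative. Log2 CPM used a pseudocount of 0.5. Groups came from the labels. The members, lists and alternatives were chosen with earlier results of these data known. The text names the members, the list genes past the adjusted threshold, and from each list in each comparison with a control the 2 genes a direction of lowest p (printed where that p was below 0.05 unadjusted), together with the 3 genes most like each member (1 is not reported here) and the sex-linked genes. On simulated counts with 200 genes changed, the model recovered 67.3% of the changed genes in NCTD_IT vs. CONTROL_IT, with 6 false calls. That share holds only for the simulated size of change and is not the chance of detecting differences like those of the members. Between tumors of a group, counts varied beyond sampling noise (chi-square per degree of freedom 8.80 to 71.8).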

Additional observations from a re-analysis of the deposited data

Results flagged for a closer look

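Dixon's ratio of the gap to the range was taken on CPM in 30 sets of 4 tumors (10 genes in CONTROL_IT, NCTD_IT and MIX_IT). By this ratio 2 sets held a tumor far from the other 3. Chance alone gives about 1 in 20 for independent, normally distributed values. CPM need not be normal and the sets share tumors, so that rate is only a rough guide here. Nfkb2 in NCTD_IT was at 13.1 CPM in replicate 20 and at 5.22 to 6.22 CPM in the other 3 (ratio 0.872). Nfkbia in CONTROL_IT was at 164 CPM in replicate 10 and at 76.7 to 91.5 CPM in the other 3 (ratio 0.831); without that tumor the log2 fold change of Nfkbia in NCTD_IT was 1.59 with an adjusted p of 0.057.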

How the results depend on the processing

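No paired analysis was possible because the labels number the tumors through, so that no number recurs in a group it is compared with. The 0 of 10 genes past the adjusted threshold in NCTD_IT vs. CONTROL_IT became 1 (Nfkbia) with DESeq2 on the same tumors, with edgeR on the 2 groups and without the filter on low counts (adjusted p 2.8e-06), 2 (Rela at 0.037 and Nfkbia) with DESeq2 on the 2 groups, and 5 at an unadjusted p. Without the filter, 1 gene was called in PTX_IT (Nfkbia, adjusted p 0.0294) and 1 in the difference of the NCTD effect between routes. In that difference 3 of the 10 genes passed the unadjusted threshold without the filter and 2 in the reported fit. The cause was not tested. Genes called over the whole table in NCTD_IT numbered 171 in the reported fit, 991 with DESeq2 on the same tumors, 1501 with DESeq2 and 946 with edgeR on the 2 groups, 1190 without the filter, 777 with all 23 tumors in the model and 0 with Xist as a covariate. With the Xist level (log2 CPM) as a covariate, a level that nearly coincides with the groups, log2 fold changes turned negative in NCTD_IT for Nfkb2 (-0.72), Relb (-1.57), Rel (-0.43), Nfkbia (-1.07), Nfkbie (-0.31), Tnfaip3 (-0.51) and Birc3 (-1.42), and in PTX_IT for Nfkb2 (-0.99), Rela (-0.11), Relb (-1.28), Rel (-0.56), Nfkbia (-1.20), Tnfaip3 (-0.56) and Birc3 (-1.82), while Relb in MIX_IT became 0.12. In the 6 comparisons with a control, no direction turned under the other tools, scalings, filters or models; directions in the other 6 were not recomputed under them. Leaving out each tumor in turn gave 0 genes past the adjusted threshold in all 12 comparisons and 2 to 5 past the unadjusted one in NCTD_IT, an alternative chosen after seeing the data; without CONTROL_IT replicate 11 or 12, or without NCTD_IT replicate 17, 18 or 20, only Rela and Nfkbia were left, without CONTROL_IT replicate 9 these and Rel, without CONTROL_IT replicate 10 these with Nfkb1 and Birc3, and without NCTD_IT replicate 19 the last 4 and Tnfaip3. Genes called over the whole table numbered 0 to 191 in these fits. The unadjusted counts, likewise chosen later, were 0 to 2 in PTX_IT (Nfkb1 and Nfkbia without CONTROL_IT replicate 10, Relb and Nfkbia without PTX_IT replicate 16), 0 to 2 in MIX_IT (Nfkbia without CONTROL_IT replicate 10, Rela and Nfkbia without MIX_IT replicate 21), 0 to 3 in PTX_IP (Nfkbia, Nfkbie and Tnfaip3 without PTX_IP replicate 3), 0 in NCTD_IP and MIX_IP, 0 to 4 in the difference of the NCTD effect between routes, and 0 to 2 in each of the other 5 comparisons. In NCTD_IT vs. CONTROL_IT no direction turned (Nfkbia 1.05 to 1.59, Rela 0.44 to 0.64). Log2 fold changes that turned when 1 tumor was left out ranged, in NCTD_IP Nfkb1 -0.60 to 0.05, Nfkb2 -0.56 to 1.66, Rela -0.07 to 0.60, Relb -0.42 to 0.70, Nfkbia -0.54 to 0.14, Nfkbib -0.32 to 0.08, Nfkbie -0.08 to 0.30 and Tnfaip3 -0.76 to 0.14, in PTX_IP Nfkb2 -0.18 to 1.48, Relb -0.35 to 0.78, Rel -0.46 to 0.78, Nfkbia -1.02 to 0.42, Nfkbie -1.44 to 0.44, Tnfaip3 -1.40 to 0.33 and Birc3 -0.66 to 0.19, in MIX_IP Rela -0.35 to 0.13, Relb -0.10 to 0.08, Rel -0.61 to 0.24, Tnfaip3 -0.43 to 0.48 and Birc3 -1.01 to 0.05, in PTX_IT Nfkb2 -0.13 to 0.23, in MIX_IT Nfkb1 -0.14 to 0.40, Nfkb2 -0.03 to 0.55, Relb -0.50 to 0.11, Nfkbie -0.55 to 0.13, Tnfaip3 -0.02 to 0.46 and Birc3 -0.20 to 0.55. The 2 tumors a group by the IP route and 10 to 63 counts for Nfkb2 set the precision.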
